A study of Drosophila melanogaster with 3 samples.

Results

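Serpins and the serine proteases of the clip-domain cascades, with their close relatives, were followed in the developing lymph gland of *Drosophila melanogaster*. The members were the genes whose symbol starts with Spn and a digit, 27 in all, together with 11 genes chosen by name (nec, MP1, Sp7, SPE, grass, psh, Hayan, modSP, ea, snk and gd). This gave 38 of the 17490 genes in the count files, of which 28 were serpins and 10 were proteases. The lymph gland is the larval blood-forming organ, and the samples were primary lobes from Oregon-R larvae, a wild-type laboratory strain, in steady state, dissected 72, 96 or 120 h after egg laying (AEL). Per the methods of the study, each sample pooled 100 to 150 glands, from which the posterior lobes, the ring gland and the dorsal vessel had been cut away. The labels name no transgene or treatment. Each time point had a single library, so the differences have no replicate check, and each comparison is between libraries rather than between stages.

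Serpins are serine protease inhibitors that trap their target protease in an irreversible complex. In insect hemolymph they hold back cascades in which one clip-domain protease cleaves the next. One set of such cascades ends in the cleavage of Spätzle, the ligand of the Toll receptor, and another ends in the activation of prophenoloxidase, the enzyme that makes melanin and is stored in the crystal cells of the blood. Most of these proteins are secreted, and the fat body is a major source of them.

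Levels are given as CPM, which are counts per 1000000 counts in a library, scaled between libraries by the trimmed mean of M-values (TMM). The library totals were 49511614 counts at 72, 37922500 at 96 and 34278733 at 120 h AEL. Of the 38 members, 22 reached 1 CPM in at least 1 library without TMM scaling, 14 serpins and 8 proteases, and these were tested among 9056 genes. All 22 passed at 72 h AEL, and 7 of them (psh, Hayan, SPE, Sp7, Spn100A, Spn31A and Spn42De) passed through that library alone, so these 7 had to be lower later. The sum over the serpins was 666 CPM at 72, 565 at 96 and 653 at 120 h AEL, while the sum over the proteases was 68.8, 131 and 221 CPM. Spn27A alone held 46.0, 44.3 and 51.3% of the serpin sum, and MP1 held 39.4, 93.6 and 95.9% of the protease sum. Outside MP1 the protease messages thus became a small remainder of their own sum in the later libraries.

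**Figure D1:**
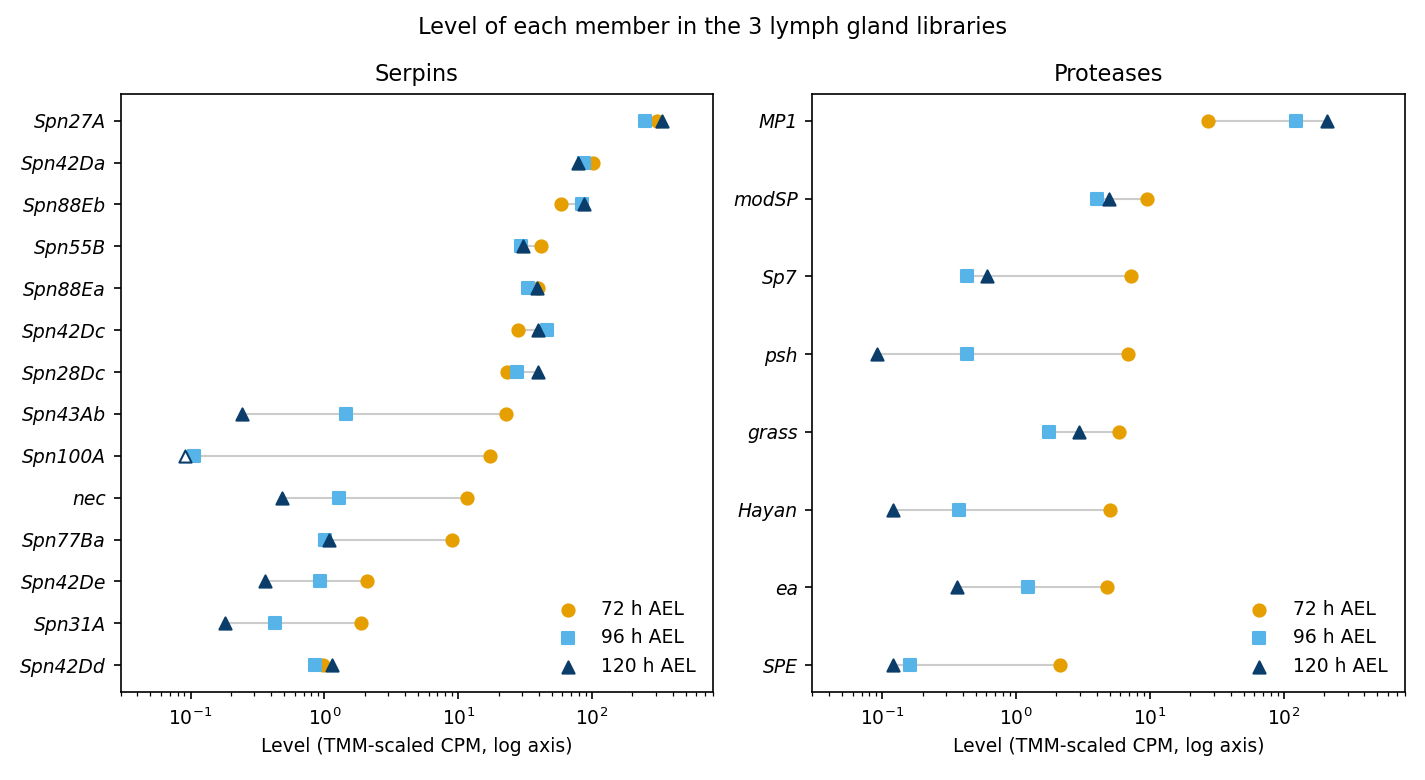
Level of the 22 tested members in the 3 libraries, serpins on the left and proteases on the right, as TMM-scaled CPM on a log axis, with 1 point per library and no error bars. An open marker is a count of 0 drawn at 3 counts. The members with the highest levels keep their points together, except MP1, whose points run from 27.2 to 212 CPM, and most of the others have the 72 h AEL point far to the right.

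At 96 against 72 h AEL, a gene was called when its log2 ratio, taken on CPM with a pseudocount of 1, was at least 2 in size (4-fold). Of the 22 members tested, 7 were called lower, where 8.62% of all genes tested were called lower. Of these, 4 were among the members that passed through the 72 h AEL library alone (Hayan, psh, Sp7 and Spn100A), and 3 were not (nec, Spn77Ba and Spn43Ab). Only MP1 was called higher, where 1.2% of all genes were. At 2-fold, 12 members were lower, with SPE, grass, modSP, ea and Spn31A added, beside 19.5% of all genes, and MP1 was again the 1 member higher, beside 4.76%. Of the 12, 6 had passed through the 72 h AEL library alone. The median log2 ratio was -1.04 over the 22 members, -0.39 over the serpins and -1.41 over the proteases, against -0.02 over all genes tested.

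At 120 against 96 h AEL, 0 members were called higher and 0 lower at 4-fold, where 0.188 and 0.0663% of all genes were. The same 0 and 0 held at 2-fold, where the background was 1.47 and 1.12%. The median log2 ratio was -0.00365 for the members and 0 for all genes, and the members' median took either sign under other settings. Smaller differences did clear counting error. The 95% interval of the fold was clear of no change for 5 members higher, namely MP1, Spn27A, Spn28Dc, Spn88Ea and grass, beside 20.3% of all genes, and for 5 members lower, namely Spn42Da, Spn42Dc, Spn43Ab, ea and nec, beside 19.7%. These shares of 22.7% in each direction were near the background.

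Over the whole span, at 120 against 72 h AEL, 8 of the 22 members were called lower at 4-fold, beside 9.68% of all genes, and 1 was called higher, beside 2.11%. At 2-fold there were 11 lower, beside 20.7%, and 1 higher, beside 7.39%. The 11 included all 7 members that passed through the 72 h AEL library alone, which had to be lower later. Among the 8 called at 4-fold, Hayan, psh, Sp7 and Spn100A were of this kind. Of those 8, 7 were already at least 4-fold lower at 96 h AEL, and ea was added. All 8 were among the 14 tested members with a mean under 20 CPM, a share of 57.1%. The share was 18.4% among all genes tested with such a mean. Of the 11, 10 were already at least 2-fold lower at 96 h AEL. The low levels at 120 h AEL were thus mostly in place at 96 h AEL. With a pseudocount of 5 CPM only 2 members, Spn43Ab and Spn100A, stayed past 4-fold lower in either comparison with 72 h AEL. The other members called lower had under 12 CPM in every library. The members' median over the span, -0.998 as a log2 ratio against -0.04 for all genes, was -0.03 when only members of at least 10 CPM were kept.

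**Figure D2:**
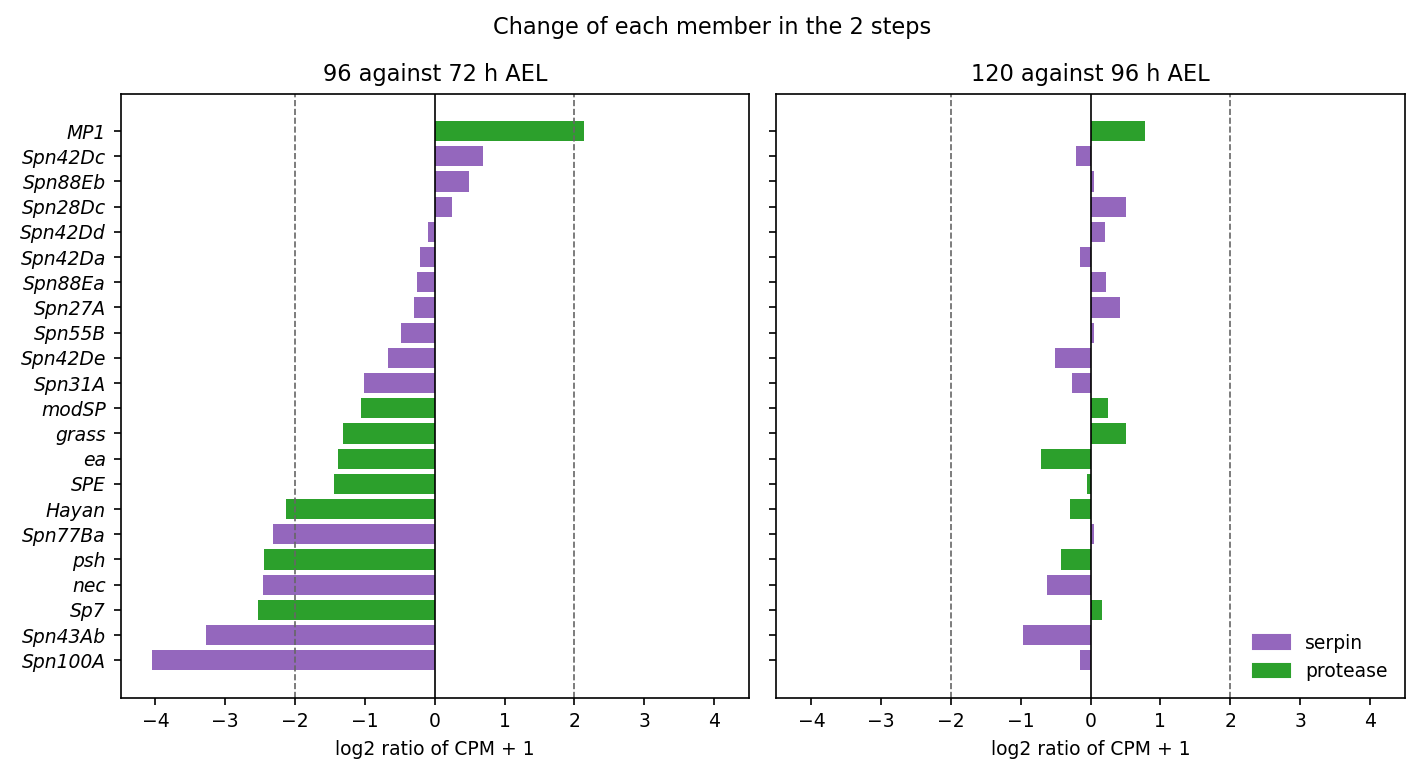
Log2 ratio of CPM plus 1 for each tested member from 72 to 96 h AEL (left) and from 96 to 120 h AEL (right), serpins in purple and proteases in green, with dashed lines at 4-fold. Bars past the left line are seen only in the first step, where 7 members pass it, and MP1 is the 1 bar past the right line.

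The lower levels of many members coincided with lower levels of markers of other tissues. The summed level of 8 dorsal vessel and muscle markers was 4533 CPM at 72, 424 at 96 and 283 at 120 h AEL, and 7 of the 8 were at least 4-fold lower at 96 h AEL. For the larval fat body, the list was split. The lipoprotein genes apolpp (listed as Rfabg), 40.0-fold lower (37.1 to 43.2) at 96 against 72 h AEL, and Apoltp, 27.8-fold lower (22.9 to 34.1), were lower, while the other 6 genes of the list, Fbp1, Fbp2, Lsp1alpha, Lsp1beta, Lsp1gamma and Lsp2, were higher at 120 h AEL than at 72 h AEL. The 8 fat body markers summed to 1780, 340 and 489 CPM, and Fbp2 and Lsp2 were the members of the list at 0 at 72 h AEL. The 8 midgut markers summed to 178 CPM at 72 h AEL, of which Jon65Aiv alone gave 175, and 7 of them were at 0 at both 96 and 120 h AEL. The 5 neuron markers went from 87.3 CPM to 9.76 and 8.99 CPM, and the 6 ring gland markers from 767 to 299 and 130 CPM. Trachea and epidermis markers, 8 in number, went from 215 to 32.0 and 21.4 CPM in sum, but this list was split as well. Gasp, serp, verm and Ccp84Ag were at least 4-fold lower at 96 against 72 h AEL, while the cuticle genes Lcp1, Lcp2 and Lcp3 were 80.4-fold (21.8 to 672), 9.03-fold (4.89 to 18.2) and 2.44-fold (1.77 to 3.40) higher. Salivary gland markers were near 0 throughout, at 0.135 CPM or less in sum. The part of these tissues in the lower levels of the members was not tested, and fewer cells of a type and less RNA per cell cannot be told apart in bulk samples.

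**Figure D3:**
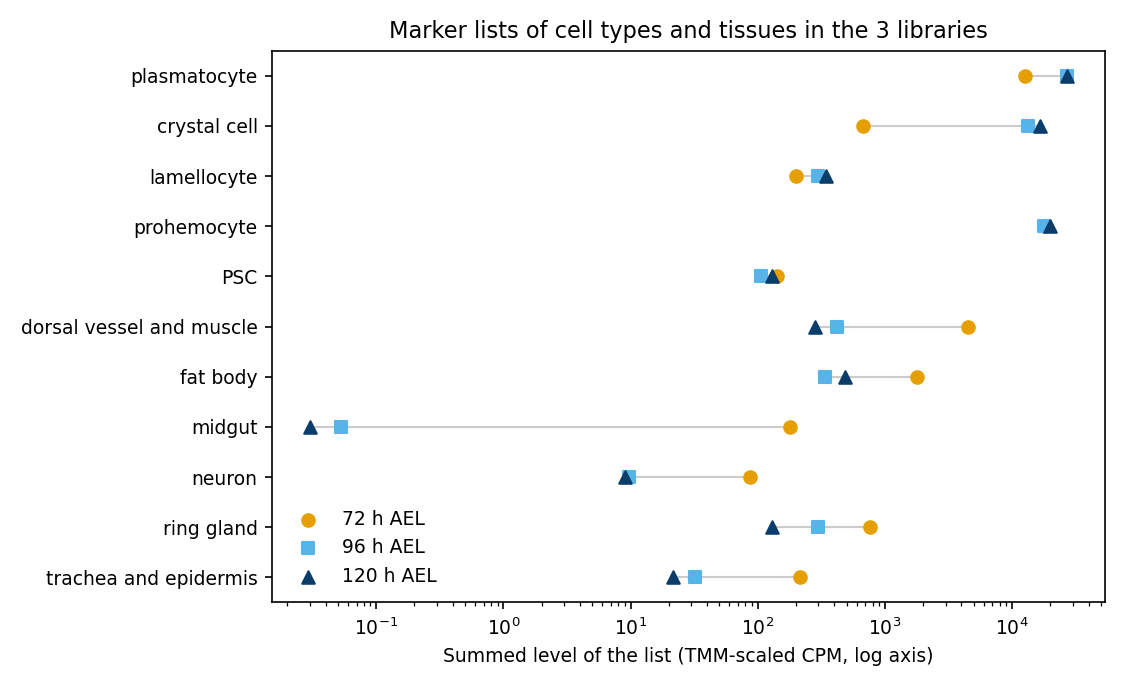
Summed level of marker lists for blood cell types of the lymph gland (the first 5 rows) and for other tissues (the remaining rows), as TMM-scaled CPM on a log axis, with 1 point per library. The 72 h AEL point is the highest in all 6 lists of other tissues shown and the lowest in the plasmatocyte and crystal cell lists. For the prohemocyte list the 72 and 96 h AEL points lie on each other at 17849 and 17812 CPM.

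The blood cell lists moved otherwise. Crystal cell markers (lz, PPO1 and PPO2) summed to 672 CPM at 72, 13355 at 96 and 16566 at 120 h AEL. Plasmatocyte markers (5 genes) went from 12653 to 26940 and 27018 CPM. Prohemocyte markers summed to between 17812 and 19975 CPM, and those of the posterior signaling center to between 105 and 143 CPM. Both lists were split at 120 against 72 h AEL. Of the prohemocyte genes, Ance was 1.74-fold higher, while Tep4 was 1.20-fold and shg 2.09-fold lower. In the other list Antp (1.68-fold) and col (1.46-fold) were lower, while Ilp6 (1.51-fold) and mthl7 (1.35-fold) were higher. The 3 lamellocyte markers went from 202 to 296 and 347 CPM, mostly from msn. Among them PPO3 had a log2 ratio of 2.44 over the span, while atilla did not differ beyond counting error. The defining markers of the lymph gland were thus present in all 3 libraries.

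MP1 and Sp7 are clip-domain proteases that act in the activation of prophenoloxidase, and they went opposite ways. MP1 (melanization protease 1) had 1406 counts at 72, 4612 at 96 and 7017 at 120 h AEL, which is 27.2, 123 and 212 CPM. It was higher in each later library, 4.53-fold (95% interval 4.16 to 4.94) at 96 against 72 h AEL, 1.72-fold (1.63 to 1.82) at 120 against 96 h AEL, and 7.80-fold (7.19 to 8.47) over the whole span. Intervals throughout are for a ratio of Poisson counts and cover counting error only. MP1 was the only tested protease with a higher level at 120 than at 72 h AEL. It lies on 3R:4307908-4309835 of the Ensembl BDGP6.54 annotation, on the plus strand, with 4 exons, and all 1525 of its exonic bases lie within exons of Vps24 on the other strand. Whether the counting used strand is not given in the sources used here, so reads of the 2 genes may not be separable. Vps24 itself had 1584, 1309 and 1344 counts, with no such gain.

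Sp7, known for its role in melanization after wounding and infection, had 374 counts in the first library and then 16 and 20. It was 16.9-fold lower (8.42 to 39.8) at 96 against 72 h AEL, and 120 h AEL did not differ from 96 h AEL beyond counting error (1.41-fold higher, interval 0.503 to 4.12). Hayan, which contributes to the activation of prophenoloxidase and also acts in the Toll arm, had 261, 14 and 4 counts. Against 72 h AEL it was 13.5-fold lower (6.37 to 34.2) at 96 and 41.8-fold lower (11.3 to 348) at 120 h AEL.

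The substrates of the melanization branch went the same way as MP1. The 3 prophenoloxidases PPO1, PPO2 and PPO3 summed to 672 CPM at 72, 13342 at 96 and 16553 at 120 h AEL. PPO1 and PPO2 made nearly all of this sum and are also on the crystal cell list, so this is not a separate result. PPO3, at 5.63 CPM at 96 h AEL, is also on the lamellocyte list. All 3 were at least 4-fold higher at 120 against 72 h AEL, where the log2 ratio was 5.11 for PPO1, 4.36 for PPO2 and 2.44 for PPO3.

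In the arm that leads to Toll, modSP is the modular protease that receives the signal from the recognition proteins, grass acts below it, psh senses microbial proteases, and SPE cleaves Spätzle. All 5 proteases of this arm (modSP, grass, psh, Hayan and SPE) were at least 2-fold lower at 96 against 72 h AEL, beside 19.5% of all genes, and 2 of them, psh and Hayan, at least 4-fold. Since psh, Hayan and SPE passed the filter through the 72 h AEL library alone, only modSP and grass could have gone either way. In sum the 5 proteases of the arm held 29.3, 6.75 and 8.18 CPM.

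modSP and grass were the proteases of the arm that also passed the filter in later libraries. Their folds are not set against those of psh and Hayan, since the filter itself required psh and Hayan to be lower later. modSP had 491, 151 and 164 counts, and grass 303, 66 and 97. modSP was 2.35-fold lower (1.81 to 3.09) at 96 and 1.92-fold lower (1.49 to 2.49) at 120 h AEL. grass was 3.32-fold lower (2.27 to 5.004) at 96 against 72 h AEL and then 1.66-fold higher (1.05 to 2.67) at 120 against 96 h AEL. It was the only protease of the arm whose second step cleared counting error, and it did so narrowly.

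psh had 352, 16 and 2 counts. Against 72 h AEL it was 15.9-fold lower (7.91 to 37.5) at 96 and, on those 2 counts, 113-fold lower (19.95 to 4473) at 120 h AEL. SPE, with 111, 6 and 4 counts, was 13.4-fold lower (4.35 to 66.9) at 96 and 17.8-fold lower (4.69 to 150.3) at 120 h AEL. Of the exonic bases of SPE, 107 are shared with CG18754 on the same strand, a gene with 31, 7 and 10 counts.

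psh and Hayan are neighbours on the X chromosome. psh lies at X:18484487-18486921 and Hayan at X:18479983-18483772, both on the minus strand and 714 bases apart. Both were at least 4-fold lower at 96 h AEL, and the later fold of each against 96 h AEL included no change. For Hayan, 872 exonic bases overlap the antisense gene CR45714, which had 0 counts in every library.

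The Toll pathway outside these proteases was not lower as a list. Of 12 genes listed, 11 were tested, and they summed to 990, 1359 and 1231 CPM. At 4-fold, 0 were called lower at 96 against 72 h AEL, beside 8.62% of all genes. At 120 against 72 h AEL 1 was called lower, GNBP3, beside 9.68%. spz, which encodes Spätzle, had the highest level of the list, 286 CPM at 72, 581 at 96 and 463 at 120 h AEL. The log2 ratio at 120 against 72 h AEL ran from -2.26 for GNBP3, a recognition protein for fungal glucans, to 1.06 for GNBP1. The median of the list was 0.41, where that of all genes was -0.04.

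Proteases of the embryonic dorsoventral cascade (gd, snk and ea, which act in that order before Spätzle in the egg) were low. gd had 6, 2 and 0 counts and snk had 12, 0 and 0, so both were under 1 CPM everywhere. ea, the protease that cleaves Spätzle in the embryo, had 249, 46 and 12 counts. It was 3.92-fold lower (2.498 to 6.41) at 96 against 72 h AEL and a further 3.39-fold lower (1.34 to 10.2) at 120 against 96 h AEL. Together the steps made ea 13.3-fold lower (5.93 to 36.9), and it was the only tested protease whose lower level in the second step cleared counting error.

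Other serine proteases and protease homologs, not all of them known to act in these cascades, were counted from a list of 12, of which 7 were tested. At 96 against 72 h AEL 4 were called lower, spirit, scaf, mas and lint (listed as CG8213), beside 8.62% of all genes, and 0 higher, beside 1.2%. Since spirit, lint and sphe (listed as spheroide) reached 1 CPM in the 72 h AEL library alone, these had to be lower later. The protease homolog SPH93 had 65, 208 and 402 counts, 9.66-fold higher (6.65 to 14.5) at 120 against 72 h AEL. Corin had the highest level of the list, 41.2, 42.8 and 25.4 CPM.

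Among the serpins, those with a known immune or protease target role parted into a lower pair and a group that differed by less than 2-fold over the span. The lower pair was nec and Spn77Ba. nec (Necrotic) inhibits the branch of the Toll cascade that runs through psh. It had 600 counts at 72, 48 at 96 and 16 at 120 h AEL, which is 11.6, 1.28 and 0.483 CPM. It was 9.05-fold lower (5.97 to 14.4) at 96 against 72 h AEL, 2.65-fold lower (1.15 to 6.83) at 120 against 96 h AEL and 24.0-fold lower (12.0 to 56.1) over the span. nec was lower in both steps beyond counting error.

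Spn77Ba, which restrains melanization in the trachea, had 467, 38 and 36 counts. It was 8.90-fold lower (5.57 to 15.1) at 96 against 72 h AEL and did not differ beyond counting error in the second step (1.07-fold higher, 0.531 to 2.16). In the same step the trachea and epidermis markers Gasp, serp, verm and Ccp84Ag were lower and Lcp1, Lcp2 and Lcp3 higher, as given above. The part of that tissue in the level of Spn77Ba was not tested.

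Spn27A, which controls the melanization cascade in hemolymph and inhibits ea in the embryo, was the most abundant member. It had 15864, 9372 and 11108 counts, which is 306 CPM at 72, 250 at 96 and 335 at 120 h AEL. Its level dipped by a small factor and came back, 1.23-fold lower (1.18 to 1.27) at 96 against 72 h AEL and 1.34-fold higher (1.29 to 1.39) at 120 against 96 h AEL. Over the span it was 1.09-fold higher (1.06 to 1.13), a difference that no longer cleared counting error under total-count scaling, which gave 1.01-fold. Spn27A lies at 2L:6671065-6673347 on the minus strand and is 1 exon in the annotation.

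Spn28Dc, another serpin that limits phenoloxidase activation, was higher in each step. It had 1197, 1038 and 1313 counts, or 23.1, 27.7 and 39.6 CPM. It was 1.20-fold higher (1.06 to 1.35) at 96 against 72 h AEL, 1.43-fold higher (1.27 to 1.61) at 120 against 96 h AEL and 1.71-fold higher (1.53 to 1.92) over the span. Spn28Dc was the only tested serpin higher in both steps beyond counting error.

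Spn42Da and Spn88Ea completed the list of serpins with known roles. Spn42Da, an inhibitor of furin-type proteases, had 5234, 3281 and 2598 counts, or 101, 87.5 and 78.4 CPM, and was 1.29-fold lower (1.21 to 1.38) over the span. Spn88Ea, a negative regulator of Toll signaling, had 2055, 1246 and 1284 counts, or 39.7, 33.2 and 38.7 CPM. Over the span it did not differ beyond counting error (1.02-fold lower, interval 0.927 to 1.13).

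Of the remaining tested serpins, Spn43Ab and Spn100A had the lowest log2 ratios of all members over the span, -4.25 and -4.20. Spn43Ab had 1175 counts at 72, 54 at 96 and 8 at 120 h AEL, or 22.7, 1.44 and 0.241 CPM. It was 15.8-fold lower (10.7 to 24.1) at 96 against 72 h AEL, 5.96-fold lower (2.08 to 23.5) at 120 against 96 h AEL and 94.0-fold lower (36.5 to 346) over the span. Spn43Ab, nec and Spn42Da were the tested serpins that were lower in both steps beyond counting error.

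Spn100A had 897, 4 and 0 counts. It was 162-fold lower (44.7 to 1345) at 96 against 72 h AEL. Over the span it was at least 191-fold lower with the count of 0 set to a floor of 3 counts in that library, and counting error allows a fold down to 77.5. Spn100A lies at 3R:30690642-30692768 on the plus strand with 2 exons. Its level at 72 h AEL, 17.3 CPM, was above that of nec, so it was not among the rare members there.

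The others were moderate. Spn88Eb had 3057, 3143 and 2861 counts, 1.42-fold higher (1.32 to 1.52) at 96 against 72 h AEL, with a second step that did not clear counting error. Spn55B had 2163, 1112 and 1014 counts, 1.41-fold lower (1.27 to 1.56) in the first step, and its second step did not clear counting error either. Spn42Dc had 1449, 1726 and 1311 counts, 1.64-fold higher (1.49 to 1.82) and then 1.16-fold lower (1.05 to 1.29).

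At the low end, Spn31A had 97, 16 and 6 counts, 10.3-fold lower (3.34 to 51.9) at 120 against 72 h AEL. Spn42De had 108, 35 and 12, a 5.76-fold lower level (2.48 to 16.4) at the end. Spn42Dd, with 51, 32 and 38 counts, did not differ between any libraries beyond counting error.

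Levels between genes were compared per exonic length, as TPM (counts per exonic length, scaled to a sum of 1000000). Spn27A led in all 3 libraries, with 252 TPM at 72, 209 at 96 and 272 at 120 h AEL. MP1 was the sixth at 72 h AEL, with 33.4 TPM, and the second later, with 154 and 257 TPM. At 120 h AEL Spn27A stood only 1.06-fold above MP1 (1.01 to 1.10) on this scale. With longest transcripts as lengths Spn27A had 261 TPM and MP1 251 TPM. The next members at 120 h AEL were Spn88Eb at 112 TPM and Spn42Da at 54.5 TPM, or 64.7 TPM with longest transcripts. Then came Spn88Ea, Spn55B, Spn42Dc and Spn28Dc, among which neighbours in the order did not differ beyond counting error. Below these 8 came a step of 10.2-fold (8.12 to 13.0) down to modSP. Among the members over 3 counts, 14 of 26 neighbouring pairs at 72 h AEL, 17 of 24 at 96 h AEL and 14 of 20 at 120 h AEL did not differ beyond counting error.

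A ratio of counts within a library does not depend on scaling, so 4 serpin and protease pairs were compared that way. Spn77Ba, whose loss leads to melanization that needs MP1 and Sp7, had 0.332 counts (0.285 to 0.386) per count of MP1 at 72 h AEL. The later ratios were 0.00824 (0.00495 to 0.0129) and 0.00513 (0.00304 to 0.00812). Their intervals lay far below the first and overlapped each other. Against Sp7, by contrast, Spn77Ba had 1.25 counts per count (1.03 to 1.52) at 72, 2.38 (0.993 to 6.27) at 96 and 1.80 (0.788 to 4.36) at 120 h AEL, and all 3 intervals overlapped.

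Of the other pairs, one shifted toward the serpin beyond counting error. Spn27A had 63.7 counts (53.4 to 76.7) per count of ea at 72, 204 (136 to 322) at 96 and 926 (425 to 2523) at 120 h AEL, with no overlap between the intervals. nec had 1.70 counts (1.41 to 2.07) per count of psh at 72, 3 (1.30 to 7.72) at 96 and 8 (1.07 to 355) at 120 h AEL, and these intervals overlapped, so no shift was shown for this pair. These are ratios of messages in whole glands and say nothing of the proteins.

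**Figure D4:**
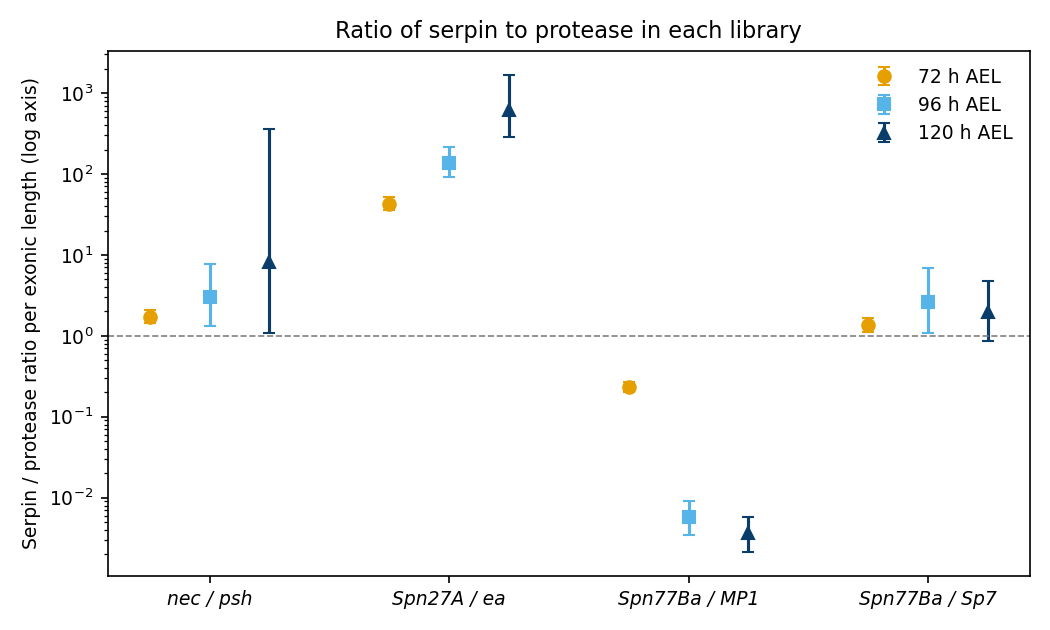
Ratio of serpin to protease per exonic length in each library, on a log axis, for the 4 pairs, with 95% counting intervals as bars. Spn27A over ea runs from 42.6 to 619 per length with bars that do not overlap, Spn77Ba over MP1 runs from 0.234 to 0.00362, and the bars overlap for the other pairs.

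Many members lie in tandem arrays, and whether neighbours went the same way differed by array. On 2R the array of Spn42Da, Spn42Db, Spn42Dc, Spn42Dd and Spn42De held, at 120 against 72 h AEL, log2 ratios of -0.36 for Spn42Da, 0.48 for Spn42Dc, 0.11 for Spn42Dd and -1.18 for Spn42De. Spn42Db, under the filter with 18, 14 and 34 counts, was 2.95-fold higher (1.24 to 7.52). Spn42Dc and Spn42Dd share 63 exonic bases on the same strand, and reads there cannot be assigned to one of them.

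Also on 2R, Spn43Aa, Spn43Ab, Spn43Ad and nec lie together, and the members of that array with more than a few counts at 72 h AEL were low later. Spn43Ad had 11, 0 and 0 counts. Spn43Aa had 1 count at 72, 14 at 96 and 2 at 120 h AEL, with a ratio of 19.3 at 96 against 72 h AEL whose interval ran from 1.52 to 21804. The array on 3R differed by gene within a narrow range, with -0.03 for Spn88Ea and 0.54 for Spn88Eb on the log2 scale. Serpins of near-identical sequence could share reads, and how the counting treated these is not given in the sources used here.

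**Figure D5:**
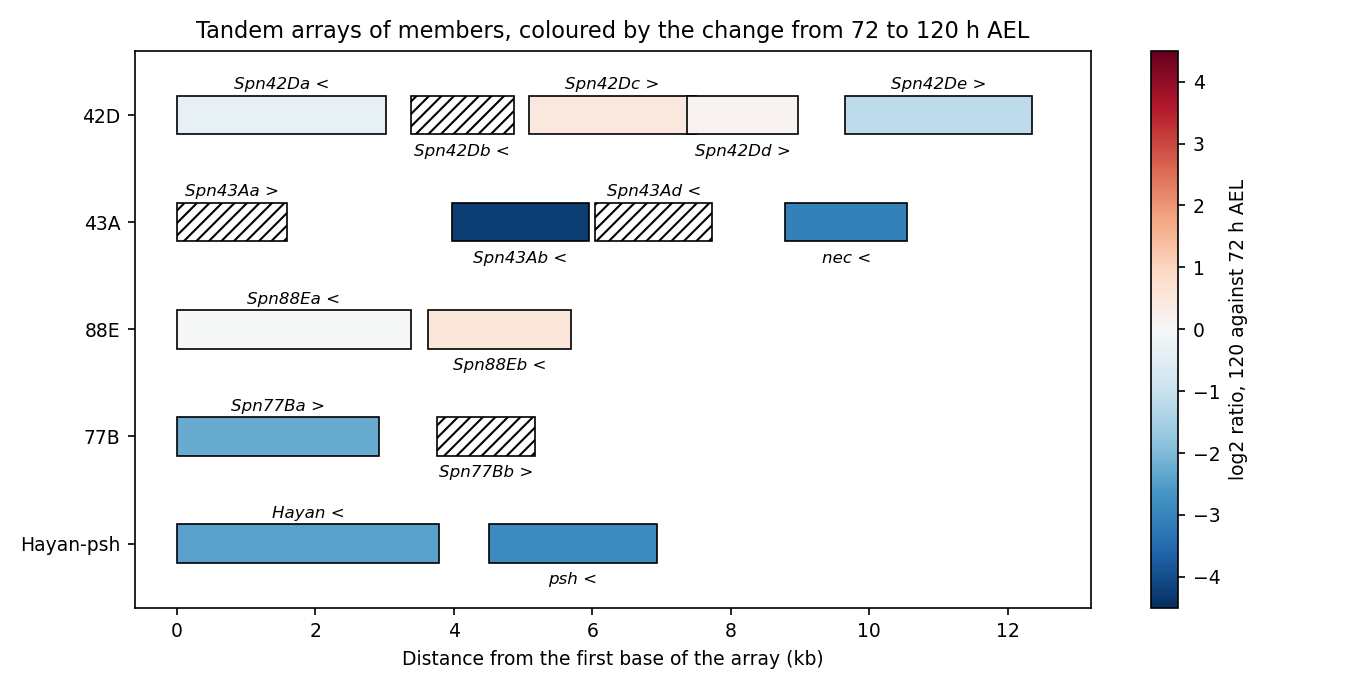
Position of members in 5 arrays, as distance in kb from the first base of the array, with arrows for the strand. Colour gives the log2 ratio at 120 against 72 h AEL, and hatched genes were under 1 CPM. The 42D array mixes pale red and pale blue, while the tested genes of the 43A and Hayan-psh arrays are blue.

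The 16 members under 1 CPM before scaling in every library were near or at 0. Of these, 7 had 0 counts in all 3 libraries, Spn28Da, Spn28Db, Spn28F, Spn38F, Spn47C, Spn53F and Spn75F, which allows up to 0.0579 CPM at 72, 0.0800 at 96 and 0.0905 at 120 h AEL for each, at 3 counts as deposited. If both mates of a pair were counted, the limits are higher. All 1279 exonic bases of Spn53F lie within exons of the antisense gene CR45272, so with strand handling unknown its limit may not hold. The rest of the 16 ranged up to 34 counts. They were gd, snk, Spn42Db, Spn43Aa and Spn43Ad as given above, with Spn28B (0, 4 and 2 counts), Spn77Bb (2, 0 and 0), Spn77Bc (0, 0 and 2) and Spn85F (24, 1 and 0). Spn85F was at least 5.12-fold lower at 120 against 72 h AEL, and counting error allows a fold down to 1.78. Over all 38 members, 9 had 0 counts at 72, 11 at 96 and 13 at 120 h AEL.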

How the data were processed

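Primary lobes of lymph glands were sequenced as bulk RNA-seq, with 1 library each at 72, 96 and 120 h AEL. The files the authors deposited hold whole-number counts for each gene, with no normalization. The submitters' processing notes name the build BDGP6, FastQC 0.11.8, STAR 2.5.3a and featureCounts 1.6.0, while strand and pair handling are not given in the sources used here. Overlapping genes and near-identical copies may therefore share reads.

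TMM factors (1.046, 0.989 and 0.967) were computed with edgeR 4.0.16 in R 4.3.3 over the 9056 genes with at least 1 CPM before scaling in at least 1 library, and DESeq2 1.42.0 size factors were an alternative. Log2 ratios were taken after adding 1 CPM, so that the change of low genes is understated. With 1 library per group no p-value was computed. Folds of single genes used scaled counts without a pseudocount and exact (Clopper-Pearson) 95% intervals. Counts were halved for the intervals, since 69.6, 72.0 and 70.9% of genes with 1 to 20 counts had even counts, as where both mates of a pair are counted. A count of 0 was set to a floor of 3 counts, counts of 1 to 3 were kept, and no fold was taken where both counts were 3 or less. Reads copied by PCR are not independent molecules, so intervals and floors speak of counting error alone.

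Exonic lengths and coordinates came from the Ensembl release 115 annotation (BDGP6.54), which held 17216 of the 17490 gene identifiers and all 38 members. Further steps ran in Python 3.11.15 with pandas 2.3.3, SciPy 1.17.1, Matplotlib 3.10.9 and NumPy 2.4.6, and the functions were tested on simulated data. The members, the gene lists and the tests were chosen with earlier results of these data known. Every member was accounted for, members over 1 CPM were named with their values, and those with at least 10 CPM and a 2-fold change were described in full. Alternatives were other scalings, pseudocounts, filters, thresholds, gene lengths and counting units. No sequence is shown.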

Additional observations from a re-analysis of the deposited data

How the results depend on the processing

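With 1 library per time point no library could be left out of a comparison with 72 h AEL. No paired analysis was possible because each group held 1 library. The counts of members past 4-fold depended on how low values were treated. With a pseudocount of 5 CPM, 2 members were lower and 0 higher at 96 against 72 h AEL, and over the whole span 2 were lower. The filter of 10 CPM left 3 lower in each of these comparisons, since fewer members were tested. A 2-fold threshold gave 12 lower in the first step. In the second step 1 member was lower when 0.1 CPM was added, and the median log2 ratio of the members, -0.00365 as reported, was 0.00321 with 5 CPM added, 0.0424 under the 10 CPM filter and 0.0509 without the 72 h AEL library. This last alternative was chosen after seeing the data, and it left 15 members tested with 0 called in either direction. Total-count scaling moved the median of all genes at 120 against 72 h AEL from -0.04 to -0.15 on the log2 scale, and of 66 folds of single members it moved 4 out of their intervals, while DESeq2 size factors moved 0. Under total-count scaling the interval of Spn27A over the whole span came to include no change and that of Spn88Ea ceased to. Neither scaling turned a direction of a single fold or altered a count of members. The members' median ranged from -1.45 to -0.25 at 96 against 72 h AEL and from -1.61 to -0.03 over the whole span, with a pseudocount of 0.1 CPM and the 10 CPM filter as the extremes. Intervals on the counts as deposited became clear of no change for Spn42De and psh at 120 against 96 h AEL. Depth limits the folds of psh, Hayan, SPE, Spn31A, Spn43Ab and Spn100A at 120 h AEL, which had 8 counts or fewer.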
